A study of Mus musculus with 6 samples.

Results

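The 9 genes Birc6, Dock6, Fbn2, Hmcn2, Pkd1l2, Ppp1r21, Syne2, Ticrr and Tpx2 had a protein-altering call by the somatic caller Strelka in each of 3 mice. They were taken by gene name from a given list and had been selected on these Strelka calls in all 3 animals, so the calls are described here and not tested. Protein-altering means an effect that SnpEff, the program that annotated the lists, rates as moderate or high, such as a missense change, a premature stop or a lost splice site. Over the 3 animals 2350 genes had such a call, 2150 of them in 1 animal, 190 in 2 and 10 in all 3, so that the genes hit in every animal made up 0.426% of the genes hit in any. The 10th gene is Dnmt3a, a DNA methyltransferase, which is outside the list; its 5 calls had Strelka qualities from 16 to 76.

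Exomes had been captured and sequenced from whole bone marrow DNA and from ear DNA of each of the animals, which gives 3 samples per tissue and 6 in total. All groups share the C57BL/6 strain, tamoxifen treatment and the P95H allele of Srsf2, a splicing factor gene mutated in myeloid neoplasms; there were no animals without the allele. The sample labels give all 3 animals the genotype R26CreERT2 Srsf2 P95H, a tamoxifen-activated recombinase expressed widely from the Rosa26 locus. In the design text 2 animals are R26-CreERT2 Srsf2P95H/+ and 1 is hScl-CreERT R26eYFP Srsf2P95H/+, whose recombinase is driven by a haematopoietic stem cell enhancer; which animal this is was not given, and driver was not used. Animals 54 and 108 are male and animal 136 is female, and all were sampled 50 to 60 weeks after tamoxifen, when moribund, which the labels also give as the age. Tissue labels cannot be checked against marker genes in genomic DNA.

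Across the lists of all variants, the samples held between 24915 and 79759 sites, with median depths at coding sites of 52 to 117.5 reads. Codon 95 of Srsf2 was listed with 2 adjacent base changes in all 6 samples, annotated one by one as P95Q (19.3% to 62.2% of reads) and P95P (20% to 63.6%); on the same copy they give the labelled P95H, though the lists do not state phase. Both shares were lowest in the marrow of animal 108, with 11 of 57 and 11 of 55 reads.

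The 9 genes belong to different pathways. In cell division, Ticrr (treslin) helps to start DNA replication at origins and Tpx2 activates Aurora A kinase and organises the mitotic spindle. Birc6 is a very large inhibitor of apoptosis that also carries ubiquitin-conjugating activity, Ppp1r21 acts on early endosomes, and Dock6 is a guanine nucleotide exchange factor for the small GTPases Rac1 and Cdc42. Syne2 (nesprin-2) links the nuclear envelope to the cytoskeleton, Fbn2 (fibrillin-2) and Hmcn2 (hemicentin-2) are extracellular matrix proteins, and Pkd1l2 is a multi-pass membrane protein related to polycystin-1.

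Strelka, which compares the marrow of an animal with its own ear, listed 49 calls in the 9 genes at 49 different positions, all single base changes. Of these 32 altered the protein, as 28 missense changes, 3 premature stops and 1 lost splice acceptor. The other 17 were 5 synonymous changes, 2 changes in splice regions and 10 outside coding sequence. Animals 54, 108 and 136 had 10, 11 and 11 of the protein-altering calls. Among 21900 RefSeq coding genes, 5.01%, 2.74% and 3.72% had such a call in animals 54, 108 and 136, and 0.0457% in all 3. No position was called in more than 1 animal. The corresponding share over all Strelka calls was not counted, so this is not read as a trait of the 9 genes. Strelka's quality, on a Phred scale, states its confidence that a change is somatic, and its lists hold no read counts, so the share of marrow reads with each change is not known from them.

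**Figure D1:**
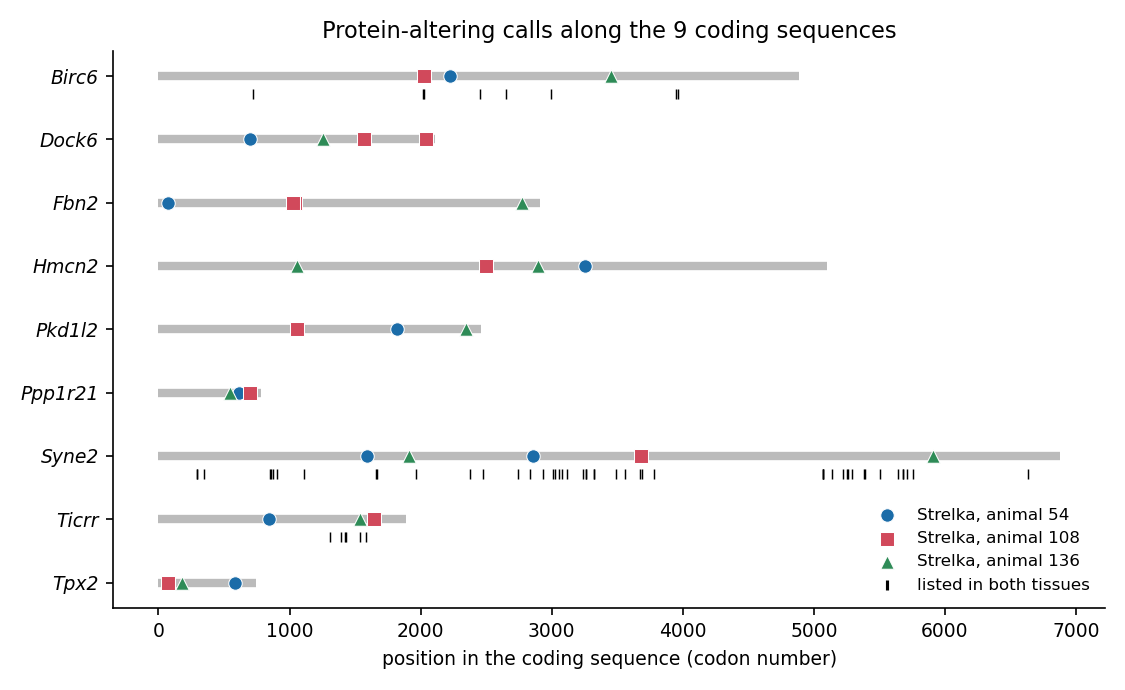
Protein-altering Strelka calls (coloured symbols, 1 colour and shape per animal) along the coding sequence of each gene (grey bar, codon number), with protein-altering sites listed in both tissues of an animal as black ticks. Calls lie at different codons in every animal, and ticks are seen in Birc6 (animal 108), Syne2 (animal 54) and Ticrr (animal 54) only; 2 of the sites numbered on another transcript are left out, and the 2 calls of animal 108 in Fbn2 overlap.

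Ticrr (ENSMUSG00000046591, chromosome 7, 79660196 to 79698148 in GRCm38, forward strand) had 1 protein-altering call in each animal. Animal 54 had L843I (position 79682448, exon 12 of 22, quality 50), animal 108 had P1643Q (79695316, exon 20, quality 46) and animal 136 had S1540R (79695008, exon 20, quality 32). Ticrr was the only one of the 9 genes that kept a call in all 3 animals at a quality of at least 30. The calls of animals 108 and 136 lay 308 bases apart in exon 20, and no other gene of the 9 had the closest calls of different animals in 1 exon. Further calls were a splice region change of animal 54 (c.5561-4C>A, quality 30) and a synonymous change of animal 136 (P522P, quality 20).

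Tpx2 (ENSMUSG00000027469, chromosome 2, 152847964 to 152895321, forward strand) had V583I in animal 54 (position 152890554, exon 15 of 18, quality 70), P73L in animal 108 (152869764, exon 4, quality 26) and A177T in animal 136 (152876607, exon 7, quality 24). All of its calls were thus protein-altering, and all were C to T on 1 of the strands.

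Birc6 (ENSMUSG00000024073, chromosome 17, 74528254 to 74703356, forward strand) had N2222K in animal 54 (position 74618440, exon 32 of 73, quality 28), the premature stop E2026* in animal 108 (74612252, exon 28, quality 48) and T3454K in animal 136 (74647771, exon 52, quality 16). The stop lies at 41.5% of the 4882 residues. Animal 108 also had a splice region change, c.11692+4A>G, at a quality of 35.

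Ppp1r21 (ENSMUSG00000034709, chromosome 17, 88530124 to 88588367, forward strand) carried the call of highest quality among the 9 genes, E618V in animal 54 (position 88577298, exon 17 of 22, quality 73). Animal 108 had L699F (88582424, exon 20, quality 29) and animal 136 had V545M (88575225, exon 16, quality 44). These calls lay between 69.9% and 89.6% of the length of its 780 residues, and those of animals 54 and 136 were 73 residues apart, the fewest between animals in any of the 9 genes.

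Dock6 (ENSMUSG00000032198, chromosome 9, 21800180 to 21852718, reverse strand) had V698M in animal 54 (position 21831916, exon 19 of 50, quality 29), C2042Y and V1566L in animal 108 (21801528, exon 48, quality 22, and 21813098, exon 38, quality 27), and A1257T in animal 136 (21817947, exon 31, quality 17). No protein-altering call in it reached a quality of 30. It had 4 calls outside coding sequence, more than any other of the 9 genes, among them c.*5G>A in the 3' untranslated region of animal 108, at a quality of 56.

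Syne2 (ENSMUSG00000063450, chromosome 12, 75818318 to 76110928, forward strand) had 5 protein-altering calls and the lowest median quality, 18. They were Q1592K and L2860P in animal 54 (position 75937403, exon 33 of 116, quality 27, and 75966615, exon 48, quality 26), E3683K in animal 108 (75987028, exon 55, quality 17), and S1909I and N5910D in animal 136 (75943971, exon 39, quality 18, and 76074492, exon 98, quality 17). At a quality of at least 20 it had calls in 1 animal.

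Fbn2 (ENSMUSG00000024598, chromosome 18, 58008623 to 58210572, reverse strand) had R76S in animal 54 (position 58209578, exon 1 of 65, quality 17), E1042G and the premature stop E1029* in animal 108 (58076683 and 58076723, exon 24, qualities 23 and 26), and Q2776L in animal 136 (58012236, exon 64, quality 56). The 2 calls of animal 108 were 40 bases apart.

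Hmcn2 (ENSMUSG00000055632, chromosome 2, 31314255 to 31460738, forward strand) had A3258T in animal 54 (position 31420087, exon 64 of 98, quality 19), T2496N in animal 108 (31403713, exon 48, quality 31), and S2898I (31411793, exon 56, quality 19) and the splice acceptor change c.3182-1G>A (31370780, intron 21, quality 25) in animal 136. Its highest quality was that of a synonymous change, L2743L in animal 54, at 59.

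Pkd1l2 (ENSMUSG00000034416, chromosome 8, 116995679 to 117082449, reverse strand) had the premature stop W1817* in animal 54 (position 117021980, exon 32 of 43, quality 20), L1056F in animal 108 (117046119, exon 19, quality 30) and A2349V in animal 136 (116998125, exon 41, quality 25). Animal 54 also had synonymous changes S2169S and A1834A, the latter 51 bases from the stop, at qualities of 26 and 22.

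Pairs of calls close together were seen in Fbn2, Pkd1l2 and Hmcn2, the last with 2 changes 10 bases apart in animal 108 that are annotated as upstream of a Hmcn2 transcript. Over the 9 genes 6 of 49 calls (12.2%) lay within 100 bases of another Strelka call of the same animal, against 2.67% of all 6603 Strelka calls. This is a description of 3 pairs and no test was made of it.

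The qualities of the 32 protein-altering calls were close to those of all such calls. They ran from 16 to 73 with a median of 26, against a median of 25 and a range of 15 to 127 over the 2691 protein-altering Strelka calls of the series. A quality of at least 30 was reached by 10 of the 32, or 31.3%, against 36.2% of all, and 8 of the 32, or 25%, were below 20, against 25.6%. Medians in animals 54, 108 and 136 were 27.5, 27 and 24 in the 9 genes and 27, 24 and 23 in all genes. The 17 calls that did not alter the protein had a median of 23.

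**Figure D2:**
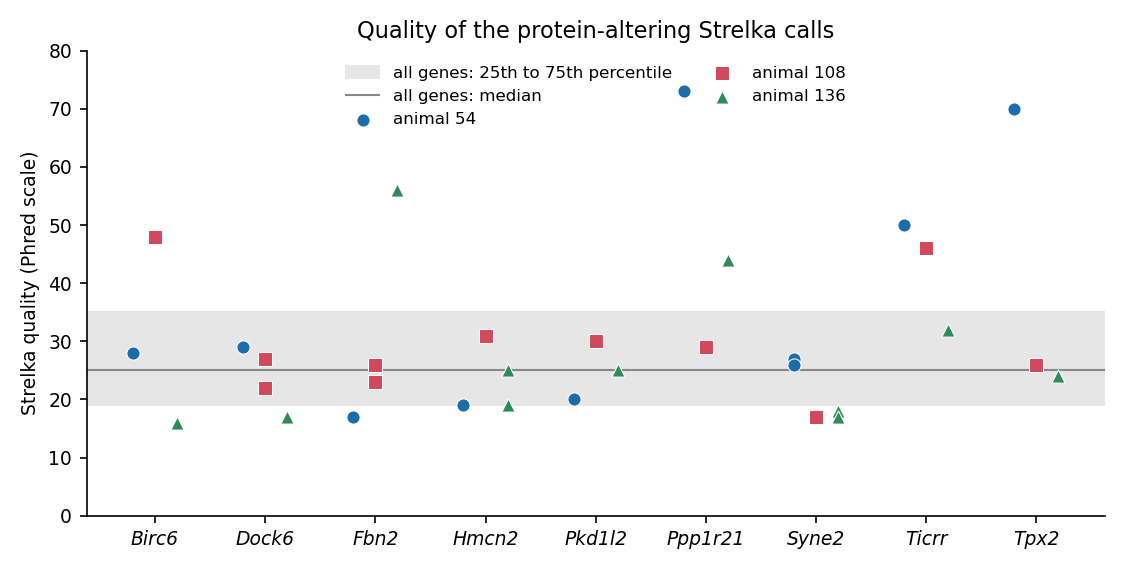
Strelka quality (Phred scale) of each protein-altering call in the 9 genes, by gene and animal, with the median (line, 25) and the 25th to 75th percentile (band, 19 to 35) of the 2691 protein-altering Strelka calls of all genes. All calls in Dock6 and Syne2 lie below 30, and all calls in Ticrr lie above 30.

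With a quality of at least 20, calls in all 3 animals were left in Pkd1l2, Ppp1r21, Ticrr and Tpx2. Birc6, Dock6, Fbn2 and Hmcn2 then had calls in 2 animals and Syne2 in 1. With at least 30, Ppp1r21 had calls in 2 animals, Birc6, Fbn2, Hmcn2, Pkd1l2 and Tpx2 in 1, and Dock6 and Syne2 in none.

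By base change, read on the strand with C or T, 18 of the 49 calls were C to A (36.7%, 95% Clopper-Pearson interval 23.4 to 51.7), 19 were C to T (38.8%, 25.2 to 53.8), 9 were T to C (18.4%, 8.76 to 32.02) and 3 were T to A. Over all Strelka single base calls C to A made up 41.4% and C to T 31.9%, both inside the intervals of the 9 genes. All 3 protein-altering calls were C to A in Birc6 and in Ticrr, and all 3 were C to T in Tpx2. On the coding strand the 14 protein-altering C to A calls were 7 of C to A and 7 of G to T. C to G and T to G, which made up 2.18% and 1.36% of all Strelka single base calls, were not among the 49. These intervals cover counting error only.

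The 9 genes are long. Their longest annotated coding sequences were 20625 bases in Syne2, 15303 in Hmcn2, 14649 in Birc6, 8724 in Fbn2, 7389 in Pkd1l2, 6336 in Dock6, 5670 in Ticrr, 2343 in Ppp1r21 and 2238 in Tpx2. The median, 7389, compares with 1923 for genes hit in 1 animal, 3153 for genes hit in 2 and 1656 for the 6308 genes with a coding annotation in any list. Of these 6308 genes 99.9% have a shorter coding sequence than Syne2, 99.7% than Hmcn2 and 99.6% than Birc6. Ppp1r21 and Tpx2 stand apart, with 67.3% and 65.0% of genes shorter.

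**Figure D3:**
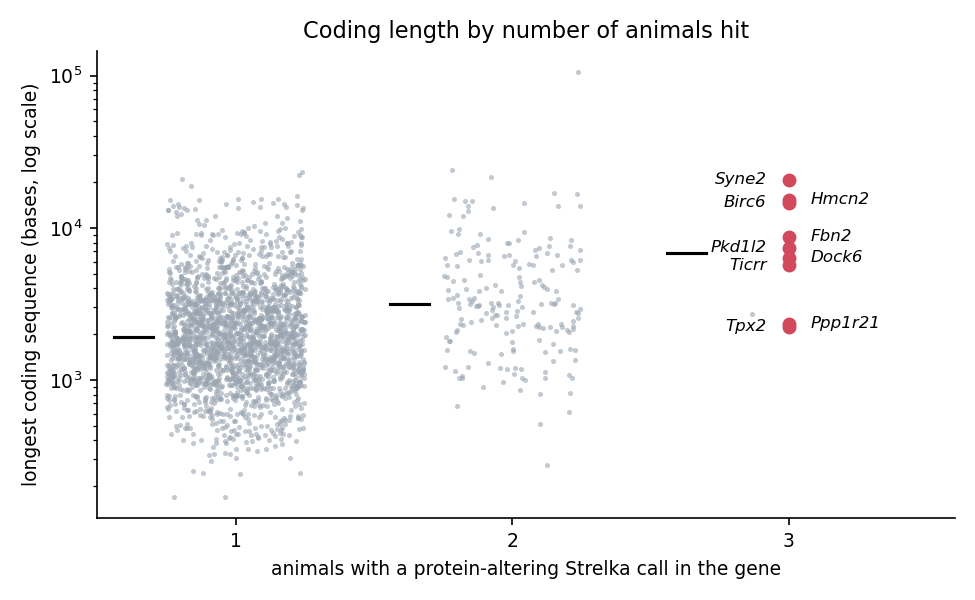
Longest annotated coding sequence (bases, log scale) of the genes with a protein-altering Strelka call, by the number of animals hit; grey points are single genes, short black lines are the group medians of 1923, 3153 and 6862.5 bases, and red points are the 9 genes (the grey point among them is Dnmt3a). The median is higher with each further animal hit, and Ppp1r21 and Tpx2 lie below the median of the genes hit in 2 animals.

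Genes hit in all 3 animals were a larger share of the longer genes. They were 0 of 3765 genes under 2000 bases, 3 of 2038 from 2000 to 5000 (0.147%), 4 of 423 from 5000 to 10000 (0.946%), 1 of 60 from 10000 to 15000 (1.67%) and 2 of 22 from 15000 bases (9.09%). The share hit in any animal went from 30.5% to 86.4% over the same classes. Coding lengths were known only for genes in at least 1 of the lists, which include the lists of calls, so these shares are higher than over all genes of the mouse. Per kilobase of coding sequence the 9 genes had from 0.205 protein-altering calls in Birc6, 0.242 in Syne2 and 0.261 in Hmcn2 to 1.28 in Ppp1r21 and 1.34 in Tpx2. Since the rule asks for at least 3 calls, a short gene on the list has a high value by construction.

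Just outside the rule were the 190 genes hit in 2 animals, of which 162 had 2 calls, 20 had 3, 7 had 4 and 1 had 6. The one with 6 was Abca13, a lipid transporter of the ABC family with a coding sequence of 15105 bases. Among the genes with 4 calls, which tie, were Col6a5, Dync1h1, Mdn1, Neb, Sspo and Ttn, with coding sequences from 7920 bases in Col6a5 to 105642 in Ttn. Inside the rule, Syne2 had 5 calls, Dock6, Fbn2 and Hmcn2 had 4 and the other 5 genes had 3.

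Relatives and partners of the 9 genes were counted from a list of 51 genes. They include other Birc, Dock and fibrillin family members, polycystins, nesprins and their SUN partners, and replication and spindle factors acting with Ticrr and Tpx2. Of the 51 genes, 42 had no protein-altering Strelka call, 6 had calls in 1 animal and 3 had calls in 2 animals. The list was not matched to other genes for coding length, and longer genes were hit more often. The 9 with a call were 17.6% of the list, against 10.5% of RefSeq coding genes with a call in any animal. Those in 2 animals were Dock5, another exchange factor of the Dock family (R1772W, C525W and T411K, animals 54 and 136, qualities 23 to 24), Hmcn1, the other hemicentin (Q5235R and Y1542H, animals 108 and 136, qualities 15 to 22), and the polycystin channel Pkd2l1 (V602F and Q579K, animals 108 and 136, qualities 20 to 25). The genes hit in 1 animal were Dock2, Dock3, Dock10, Ltbp1, Syne3 and Sun1. The 11 replication and spindle partners on the list had no call, a number too small to set against that share.

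None of the 32 protein-altering calls was in the list of all variants of the same marrow, where 9.07% of the 2691 such calls of all genes were found. Taking 3 over the number of calls as an approximate limit, a count of 0 of 32 allows a share of up to 9.38%. This limit is close to the share of all genes, so no difference from them is read from the count. Of all 49 calls 3 were found there (of all 6603 Strelka calls, 13.1%). None of the 49 was in the ear list of its animal, a share that was not counted over all Strelka calls. In Dock6, c.4086+56C>T was in 4 of 39 marrow reads of animal 54. In Syne2, c.*3906T>C, annotated as downstream of a Syne2 transcript, was in 4 of 32 marrow reads of animal 54. In Fbn2, c.5333-56G>T was in 6 of 30 marrow reads of animal 136. Apart from the variant-rich stretches described next, the lowest share of variant reads at a listed site of the 9 genes was 10%.

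A few calls lay next to a listed site whose depth shows how well the place was covered. E2026* in Birc6 lay 6 bases from a site listed in animal 108 at depths of 85 (marrow) and 93 (ear). L2860P in Syne2 lay 11 bases from a site in animal 54 at depths of 65 (marrow) and 144 (ear). The splice region change of Birc6 lay 32 bases from a site at 191 and 179 reads. For most other calls the nearest listed site of the animal was too far to speak of their depth.

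VarScan2, the other somatic caller, made no protein-altering somatic call in the 9 genes. It listed 14 calls there, all in animal 54, with 12 in Syne2, 1 in Ticrr and 1 in Tpx2, and none at the position of a Strelka call. Its lists held 1281, 1866 and 625 calls in all genes of animals 54, 108 and 136. How many Strelka calls of all genes lay at a VarScan2 position was not counted. The lack of overlap is therefore not read as a trait of the 9 genes. Of the 12 in Syne2, 4 were marked somatic and 8 as loss of heterozygosity, among them the missense site A849T and the synonymous site A849A. The somatic calls lay outside coding sequence. The one in Ticrr, c.*101G>A in the 3' untranslated region (position 79696864), had 32 variant reads of 141 in marrow (22.7%, interval 16.1 to 30.5), while ear had 30 of 211 (14.2%, interval 9.80 to 19.7), with a somatic p of 0.0292 in the authors' deposited table, so that ear carried it too. The one in Tpx2 was a deletion of 1 base upstream of a transcript, in 4 of 13 marrow reads and 1 of 26 ear reads.

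Sites listed in both tissues of an animal, which are taken here as inherited, were concentrated in 3 of the 9 genes, each in 1 animal. Over the 9 genes and 3 animals there were 504 such sites. Of these, 179 were coding, with splice region changes in introns counted as coding, and 64 were protein-altering. Syne2 in animal 54 had 313, Birc6 in animal 108 had 150 and Ticrr in animal 54 had 15. All 64 protein-altering sites were in these, with 49, 9 and 6. Dock6 had 3, 3 and 4 sites in animals 54, 108 and 136, of which 3 in each lay downstream, outside the gene span. Fbn2 and Hmcn2 had 1 to 3 in each animal, with 1 coding site between them, a splice region change in Hmcn2. Pkd1l2, Ppp1r21 and Tpx2 had none in any animal.

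In Syne2 of animal 54 the inherited sites ran from position 75879890 to 76109942, with 130 coding sites, of which 72 were synonymous and 49 altered the protein (37.7% of the coding sites, against 36.3% of all coding sites shared by the tissues of this animal). Of the 49, 48 were missense changes and 1 was an insertion that replaces N3490 with 2 residues, seen in marrow in 82 of 164 reads (50%) and in ear in 88 of 230 (38.3%). Exon 48 held the most of them, with 9 missense changes, V2741I, V2836A, M2932I, L3008I, G3024E, A3057T, Q3080R, R3113Q and S3236G. The share of variant reads had a median of 46.2% in marrow and 46.8% in ear over all 313 sites, next to medians of 46.5% and 46.8% over all shared sites of the animal. Only 1 site was above 90% in both tissues. A stretch of 42631 bases between positions 75997698 and 76040329, from exon 60 to exon 81, had no site listed in both tissues, whereas the next longest gap was 9439 bases and the median gap 70.5 bases. The same gene had 1 such site in animal 108 and 1 in animal 136.

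In Birc6 of animal 108 the inherited sites ran from 74528903 to 74702224, almost the whole gene, with 33 coding sites, of which 23 were synonymous and 9 were missense (27.3% of the coding sites, against 32.6% over this animal). The missense changes were A718T, N2020S, G2024C, C2455G, Q2648H, T2996I, M3951V and I3966V, and Y97N numbered on a shorter transcript. Q2648H had the lowest marrow share, 42 of 111 reads (37.8%) against 56 of 107 in ear (52.3%), and T2996I the highest, 39 of 70 reads (55.7%) against 39 of 84 in ear (46.4%). Medians over the 150 sites were 48.3% in marrow and 47.7% in ear, and no site was above 90% in both. G2024C is the site 6 bases from the Strelka stop E2026*, in 38 of 85 marrow reads and 44 of 91 ear reads. The 1 Mb on either side of Birc6 held another 923 shared single base sites in animal 108, against 2 in animal 54 and 3 in animal 136, and the corresponding number around Syne2 in animal 54 was 183, against 2 and 1 in the other animals.

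Ticrr of animal 54 differed from both in extent and in read share. Its 15 sites in the lists of all variants of both tissues lay in exon 20, within 1413 bases from 79694304 to 79695716. No other part of the gene had a site in both of these lists. The VarScan2 site c.*101G>A of this animal, in the 3' untranslated region, was not among the 15, though 22.7% of marrow and 14.2% of ear reads carried it. The 15 were 9 synonymous and 6 missense changes. E1306K was in 39 of 134 marrow reads (29.1%) and 97 of 263 ear reads (36.9%), C1391Y in 57 of 165 (34.5%) and 60 of 227 (26.4%), and G1423R in 36 of 106 (34.0%) and 53 of 204 (25.98%). G1430D was in 33 of 114 (28.9%) and 54 of 204 (26.5%), S1539G in 25 of 92 (27.2%) and 62 of 156 (39.7%), and G1581E in 46 of 193 (23.8%) and 65 of 228 (28.5%). No order of marrow and ear was common to them, with marrow higher at 6 of all 15 sites and lower at 9.

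The median share of variant reads over the 15 Ticrr sites was 29.1% in marrow (lowest 20.2%, highest 38.4%) and 30.4% in ear (21.8% to 39.7%). All 15 lay between 20% and 40% in both tissues, as did 11.4% of all coding sites shared by the tissues of animal 54. Their median depth was 115 reads in marrow and 204 in ear, against 92 and 141 over those coding sites. Sites of such extent and share were not seen in animals 108 and 136, which had no site of Ticrr in both tissues. Exon 20 of the same animal held a further missense change listed in marrow and not in ear, L1798I, in 20 of 107 reads (18.7%). The 1 Mb on either side of the gene held 17 other shared single base sites in this animal, and 12 and 5 in animals 108 and 136. Whether the 15 sites are inherited, and the part of depth in these shares, was not tested. The Strelka call S1540R of animal 136 lay 5 bases from the S1539G site of animal 54.

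**Figure D4:**
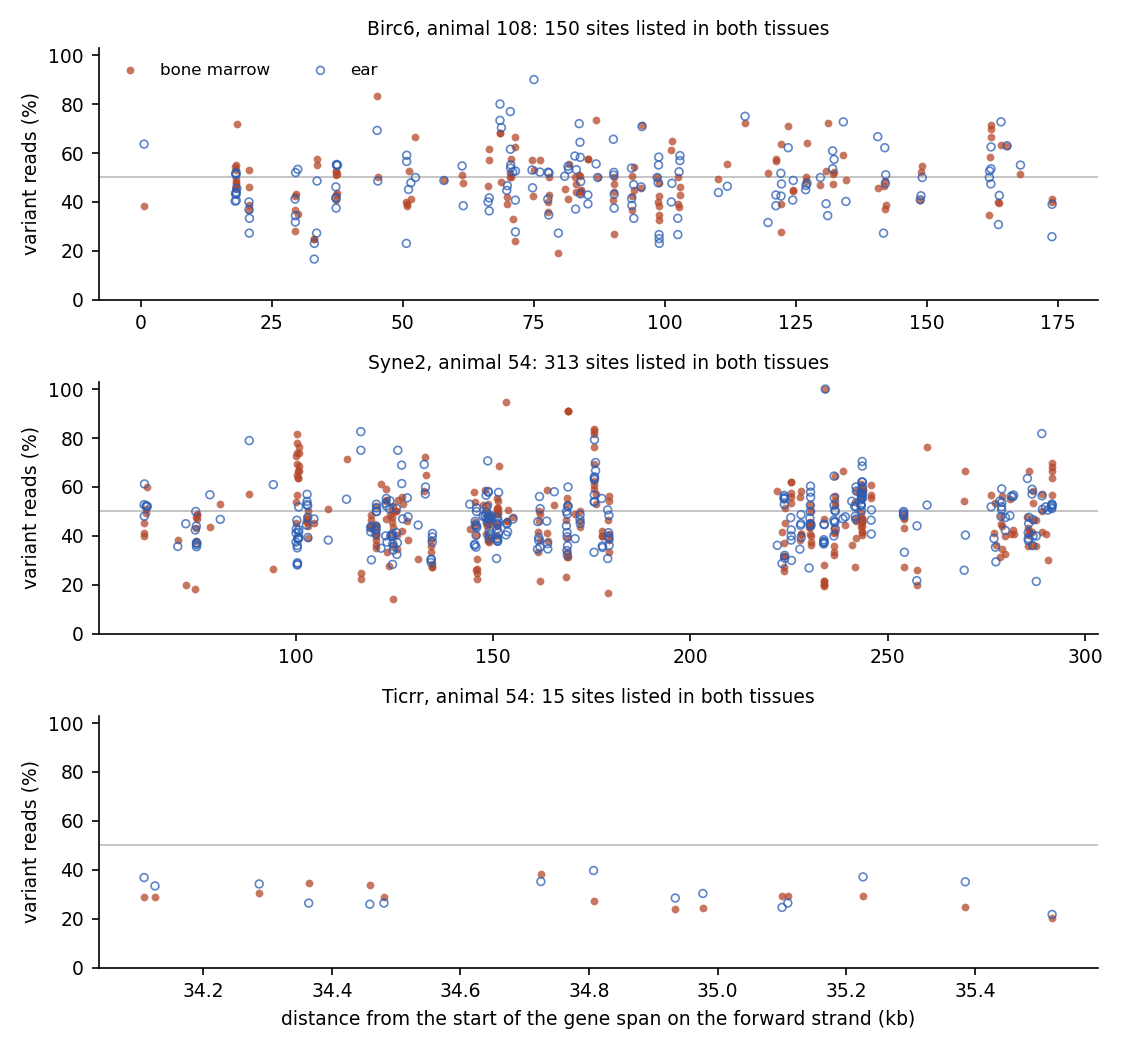
Share of variant reads (percent) at each site listed in both tissues, for Birc6 in animal 108, Syne2 in animal 54 and Ticrr in animal 54, against the distance from the start of the gene span (kb); filled points are bone marrow, open points are ear and the grey line marks 50%. Points scatter around medians of 48.3% and 47.7% in Birc6 and of 46.2% and 46.8% in Syne2, and all points of Ticrr lie under 40%.

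Marrow was compared with ear at the sites of the 9 genes listed in both tissues, to see whether the variant share had shifted in blood cells. In bulk DNA, fewer cells with a variant and fewer variant copies in a cell cannot be told apart. None of their sites reached an adjusted p under 0.05 (Fisher's exact test on reads, two-sided, with Benjamini-Hochberg adjustment over all sites of the animal), with 336, 156 and 9 of their sites tested in animals 54, 108 and 136. Over all sites 0.0346%, 0.0327% and 0.0181% passed. At an unadjusted exact p under 0.05 the 9 genes had 40, 11 and 1 sites, or 11.9%, 7.05% and 11.1%, against 8.41%, 7.43% and 6.22% of all sites. Neighbouring sites share reads, so these counts are not of independent sites. A site listed in 1 tissue only could not enter the test. The 9 genes had 144 such sites in marrow and 228 in ear, of which 16 and 152 were in Syne2 of animal 54. Median depth at coding sites of animal 54 was 82 reads in marrow and 117.5 in ear. The part of depth in these counts was not tested, and their share over all genes was not counted.

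The lowest p in animal 108 was at position 74659387 in Birc6, annotated as c.*4210G>A of 1 of its transcripts, with 50 of 69 marrow reads (72.5%) and 21 of 61 ear reads (34.4%), a difference of 38.0 points (exact p = 1.91e-05, adjusted p = 0.0527). With sites of at least 20 reads, of which 0.0476% passed in this animal, the adjusted value of this exact test was 0.0406, so this call depended on the depth asked for. Both directions occurred in Birc6, with 2 of its 10 sites under 0.05 higher in marrow and 8 lower. In animal 54 the lowest p was at position 75971596 in Syne2, an intronic insertion, with 18 of 19 marrow reads and 19 of 47 ear reads (exact p = 3.27e-05, adjusted p = 0.0579).

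The 40 sites of Syne2 under an unadjusted exact p of 0.05 fell into 23 groups in which neighbours were at most 100 bases apart, 15 higher in marrow and 8 lower. Only 7 of the groups held more than 1 site, and sites so close can lie on the same reads. From 75918709 to 75918745, 5 sites had marrow shares of 65% to 81.8% and ear shares of 28.1% to 36.1%. Just after them A849T was in 16 of 21 marrow reads (76.2%) and 17 of 40 ear reads (42.5%), the site that VarScan2 marked as loss of heterozygosity. From 76042070 to 76042081, 4 sites including G5067S, T5070A and T5070I went the other way, with 25.6% to 31.7% in marrow and 55.1% to 56.6% in ear. From 76061673 to 76061831, 5 sites including S5683G and S5707G had 40.4% to 47.4% in marrow and 56.2% to 70.4% in ear. Over all 313 sites marrow was higher at 158, lower at 153 and equal at 2, with a median difference, marrow minus ear, of 0.31 points. Neither direction held along the gene.

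Sites of the 9 genes listed in all 6 samples were only 3, all annotated to Dock6, at positions 21796009, 21796015 and 21796020. They lie downstream of its last exon, outside the gene span given above. At 21796015 the marrow shares of animals 54, 108 and 136 were 55.6%, 43.4% and 46.8% and the ear shares 48.1%, 39.3% and 41.0%. Marrow was higher in each animal, by 5.77 points ± 1.65 (SD, n = 3), while the ranges of the 2 tissues overlapped. None of the 3 sites passed a Cochran-Mantel-Haenszel test stratified by animal (a test across all 4444 sites listed in 6 samples, of which 0.0225% passed and 8.06% were under an unadjusted 0.05); the lowest p, at this site, was 0.408 and its adjusted p was 1. The other 2 sites differed by 2.51 points ± 8.39 and 1.80 points ± 12.3 (SD, n = 3), less than the spread between animals.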

How the data were processed

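Members, lists and tests were chosen with earlier results of these data known. Per the labels' protocols, a 50 Mb exon capture was used and the mean depth was to be 100 reads. Builds GRCm38 and mm9 and the tools SAMtools, Bowtie2 and FastQC are named without roles in the submitters' processing notes; gene spans are from RefSeq (GRCm38.p6). Per the file headers, the SAMtools lists give reads per allele and strand, the authors' VarScan2 lists give deposited read counts in marrow and ear and a somatic p-value, and the Strelka lists a quality only. How the callers filtered is not given in the sources used here; the lowest listed depth was 11.

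Each site took its SnpEff annotation of highest impact per gene, and coding length is the longest SnpEff gives, since no RefSeq protein table was at hand. Lists were joined by animal, chromosome, position and alleles. Fisher tests needed at least 10 reads in each tissue, with Benjamini-Hochberg adjustment over all sites of an animal, and the Cochran-Mantel-Haenszel test was continuity-corrected (Python 3.11.15, scipy 1.17.1). Both were tested on simulated data with independent reads and a large shift in variant share. The outcome is not given here, and smaller shifts and linked sites were not covered by this. Which shifts the tests could have missed at the sites of the 9 genes is therefore not known. The tests treat reads and linked sites as independent, which they are not. Replicates are separate animals. Marrow and ear of 1 number come from 1 animal, per the labels, and deviations of the pairs from tissue means correlated at 0.153, 0.196 and 0.111 in animals 54, 108 and 136 (4444 sites). The named genes are the 9 members with each Strelka and VarScan2 call, the other gene hit in 3 animals, the genes hit in 2 with most calls (5, extended by ties; 1 is not reported here) and family members hit in 2. Alternatives covered quality, annotation, matching, depth, indels, stratum and leaving out each animal.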

Additional observations from a re-analysis of the deposited data

How the results depend on the processing

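Of 26 alternatives 20 left a result within 1.5 times of its value and 6 did not. Protein-altering Strelka calls in the 9 genes fell from 32 to 10 at a quality of at least 30 and were 21 to 22 with 1 animal left out, by construction of a sum over animals. Genes hit in all 3 animals fell from 10 to 4 at a quality of at least 20 and to 1 at 30. In animal 108 the 20 read minimum gave 1 site of the 9 genes past the threshold in place of 0, with fewer sites tested. Without the animal as a block, reads pooled over animals gave 0 sites past the threshold, as with it, and an adjusted p of 0.963 at the lowest; with each animal left out it was also 0, at an unadjusted p of 0.115 or above. Coding length by RefSeq proteins was not run. Depth limits single sites: Strelka lists hold no reads, and shares at sites of 10 to 20 reads are uncertain.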
